A study of Mus musculus with 5480 samples.

Results

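Myofibroblasts of the newborn mouse lung were compared between postnatal day 7 (P7) and postnatal day 1 (P1), both in normal air. The members were the cells that carry the authors' subtype label Myofibroblast in those 2 groups, and the reads of each gene were summed over the labelled cells of a mouse. They numbered 410 of the 5480 cells in the series: 39 in the female and 32 in the male at P1, and 155 in the female and 184 in the male at P7. The label was also on 7 cells at embryonic day 18.5, on 103 cells of the mice at P7 in hyperoxia (oxygen-enriched air), and on 0 of the P21 cells.

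Lung myofibroblasts are contractile fibroblasts that lie at the tips of the growing septa, the ridges that divide the air sacs after birth. They are known for smooth muscle actin, for the receptor of platelet-derived growth factor A, and for secreting elastin, the rubber-like protein of the fibres that let the lung recoil. Elastin is laid down on a scaffold of fibrillin microfibrils, joined to it by fibulins and latent TGF-beta binding proteins, and then cross-linked by lysyl oxidases. In the mouse these cells are abundant during septation and are lost once it ends.

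The series holds single mesenchymal cells of distal lung which had gone through flow cytometry sorting and plate-based sequencing, without molecular identifiers. Each group was 1 female and 1 male mouse, so there were 2 mice a side. The female and the male at P7 in hyperoxia entered the fits only to estimate the spread between mice. The labels give no strain, allele or transgene. A read count here is a count of amplified copies and not of molecules, and the p-values rest on the spread between single mice. The 2 male mice shared a sequencing run apart from 1 cell of the P7 male. The P1 female and the P7 female had been sequenced in different runs from each other and from the males, so the males' own difference is given as the within-run value, with no test since it sets 1 mouse against 1.

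The summed libraries held 22397170 and 30183225 reads in the P1 female and male, and 166080639 and 213051124 in the P7 female and male. The P1 libraries were the shallower ones, because they held fewer cells and fewer reads per cell. The median cell had 536632 and 704685 reads at P1 and 1069503 and 1021952.5 at P7. With the cells thinned to 100000 reads apiece, the median number of genes detected per cell was 3329 in the P1 female against 2191 in the P1 male, 2233.5 in the P7 female and 2132 in the P7 male. The thinning left out 5, 5, 3 and 6 cells of these mice, and the unthinned medians were 3162, 2408, 2864 and 2833.5 genes. The P1 female thus stood apart from the other 3 mice in genes per cell, and values that depend on it are given without it or with those of the males. No column of counts was held by more than 1 of the labelled cells (0 duplicates).

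Myofibroblasts took up more of the sampled cells at P7. They made up 6.16% (95% Wilson interval 4.54 to 8.31) and 5.61% (4.00 to 7.82) of the female's and male's cells at P1, and 25.6% (22.3 to 29.2) and 32.3% (28.6 to 36.2) at P7. These intervals cover counting error only, and the sort can set such shares. Cells under a separate label, Proliferating myofibroblast, were not among the members and numbered 2 and 5 at P1 and 32 and 45 at P7.

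Levels of the markers of the label were examined in all 4 mice. Each of the 11 myofibroblast markers examined had reads in every mouse, and their summed level was 15922 and 19362 CPM at P1 and 16569.8 and 14948 CPM at P7 (CPM are reads scaled to a common library size by the TMM method, and the female is named first throughout). Reads in every mouse do not test the label, since the endothelial marker Pecam1 also had them (4 and 4 at P1 and 19 and 22 at P7). Pdgfra, the receptor that marks the lineage, was at 362 and 170.5 at P1 and 359.8 and 258 at P7, and Tgfbi, a secreted matrix protein, was at 5660.3 and 6289 at P1 and 4892 and 3248 at P7. In early airway smooth muscle of the same mice Pdgfra was at 64.1 and 77.0 CPM at P1 and 40.2 and 10.5 CPM at P7, and in early alveolar fibroblasts at 72.0 and 48.0 CPM at P1 and 24.6 and 33.3 CPM at P7, below the myofibroblasts in each mouse. The marker set was not uniform between ages. Stc1, a secreted glycoprotein hormone, was at 1219 and 542 CPM at P1 and 188 and 193 CPM at P7, a log2 difference of -2.12 ± 0.39 (SE) (edgeR adjusted p 0.380). Enpp2, which makes lysophosphatidic acid, was at 367 and 198 at P1 and 61.3 and 75.5 at P7, a log2 difference of -2.02 ± 0.42 (SE). Both P7 mice lay below both P1 mice for these markers. Mustn1, a small nuclear protein of muscle and bone cells, went the other way in both sexes, from 251 and 442 to 674 and 999 CPM, and Fgf18, a septation growth factor, was at 74.5 and 86.4 at P1 and 139 and 154 at P7. Over the list, 4 of the 11 markers were higher and 3 lower in both P7 mice, with 4 overlapping. These were 36.4% and 27.3%, against 25.8% and 15.4% of all genes. In summed reads, fewer cells that express a gene and less RNA of it per cell cannot be told apart, which holds for every summed level below.

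No gene passed the test between P7 and P1. Of 13380 genes tested with edgeR's quasi-likelihood test, 0 had an adjusted p under 0.05 (0.0%), and the smallest adjusted p was 0.0915, shared by Cd14 and Pgf. At an unadjusted p under 0.05 there were 1072 genes, 728 higher at P7 (5.44%) and 344 lower (2.57%), and nothing in this count is adjusted for the number of genes. DESeq2, run on the same libraries, called 472 genes higher (3.75%) and 221 lower (1.75%) of the 12601 genes to which it gave an adjusted p. The count of 0 in edgeR also changed in some of the fits with a mouse left out. Such a fit leaves a single mouse in a group, which then has no spread between mice. Its count therefore cannot show what the 0 depended on. In 3452 genes both P7 mice were higher than both P1 mice (25.8%), and in 2066 both were lower (15.4%). Of the genes tested, 1373 and 1781 had no read in the P1 female and male, against 279 and 168 in the P7 female and male. A gene without reads in both P1 mice cannot be lower at P7, so these shares are an uneven background for lists of well-read genes. The part of read depth in these shares was not tested. Over all genes tested the median log2 difference was 0.18. The values below describe these 4 mice, and only the differences between cell classes, given with elastin, include genes that passed.

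**Figure D1:**
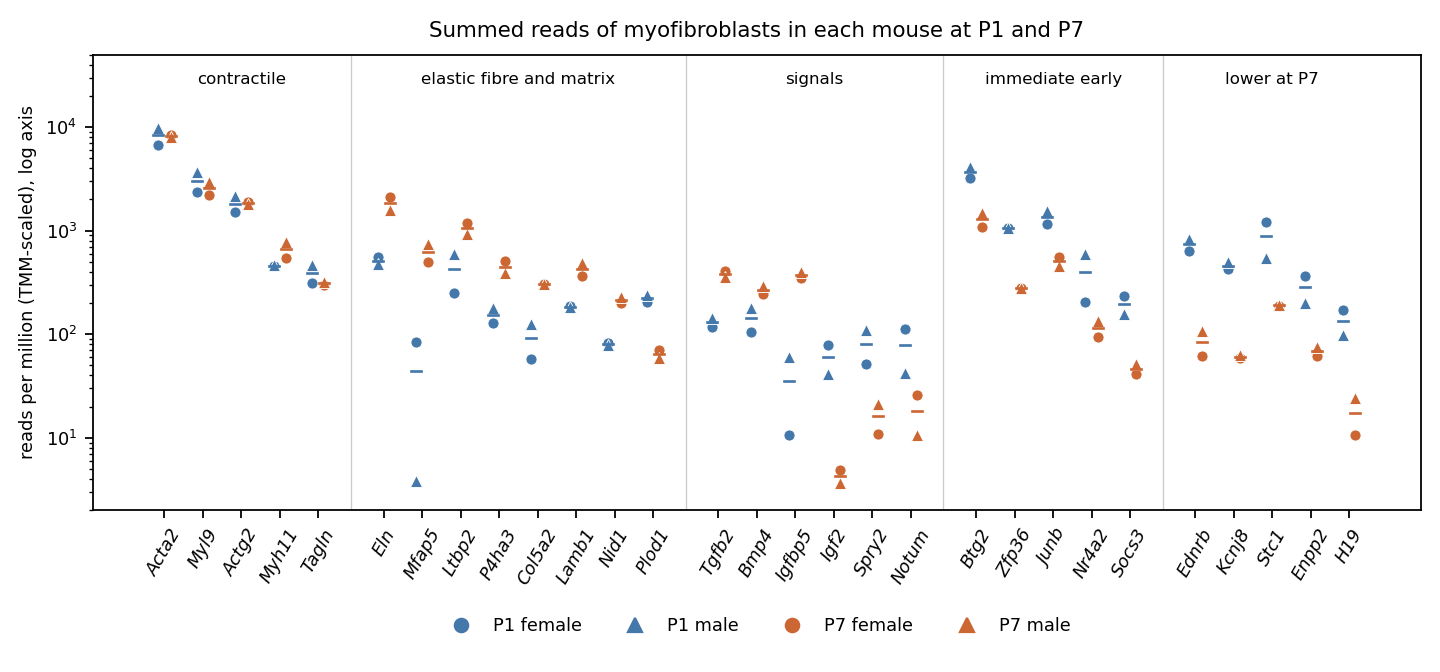
CPM (TMM-scaled, log axis) of 29 genes in the summed myofibroblast reads of each mouse. Circles are females, triangles are males and horizontal bars are the mean of 2 mice, with blue for P1 and orange for P7. The contractile genes overlap or lie close between ages, Eln and the matrix genes beside it other than Plod1 lie higher at P7, and the immediate early genes lie lower at P7.

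Genes of the contractile apparatus lay on both sides. Of the 26 tested, which encode smooth muscle actins, myosin and their binding proteins, 6 were higher and 6 lower in both P7 mice than in both P1 mice (23.1% and 23.1%, against 25.8% and 15.4% of all genes), and 14 overlapped. Their median log2 difference was -0.23. At an unadjusted p under 0.05 in edgeR, 0 were higher and 0 lower, where 5.44% and 2.57% of all genes were. At an adjusted p under 0.05 DESeq2 called 0, against 3.75% higher and 1.75% lower of all genes given an adjusted p. Acta2, smooth muscle actin, was at 6689.6 and 9884 CPM at P1 and 8427 and 8038 CPM at P7, with the 2 P7 values inside the range of the P1 values. Actg2, the enteric smooth muscle actin, was at 1496 and 2135 at P1 and 1871 and 1808 at P7, and its P7 values lay inside the P1 range as well. Reads of these near-identical actins may be shared between them. Myh11, smooth muscle myosin heavy chain, was at 450.3 and 470.1 at P1 and 542 and 775 at P7, higher in both P7 mice, with a log2 difference of 0.51 ± 0.34 (SE) and an edgeR adjusted p of 0.704. Tagln, an actin-binding protein of early smooth muscle, was at 309 and 467 at P1 and 298 and 320.2 at P7.

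Some contractile genes lay lower at P7 in both sexes. Csrp1, a LIM protein of the actin cytoskeleton, was at 823 and 1371 CPM at P1 and 629 and 567 CPM at P7, a log2 difference of -0.82 ± 0.34 (SE). Cnn2, a calponin that binds actin, was at 1192 and 1196 at P1 and 878 and 741 at P7 (log2 -0.57 ± 0.30 SE). Myl9, the regulatory light chain of smooth muscle myosin, was at 2346 and 3678 at P1 and 2210.3 and 2945 at P7, and the ages overlapped. Among the 22 tested regulators of contraction, 5 were higher and 3 lower in both P7 mice than in both P1 mice (22.7% and 13.6%, against 25.8% and 15.4% of all genes). Ednrb, the endothelin receptor type B, stood out among them at 630.3 and 838 CPM at P1 and 61.9 and 108 CPM at P7, a log2 difference of -3.12 ± 0.48 (SE) with an edgeR adjusted p of 0.343. Both P1 mice lay far above both P7 mice, and the males alone gave -2.96. Rgs5, which damps G protein signalling in vessel-wall cells, was at 4.25 and 19.0 at P1 and 37.8 and 67.6 at P7, and Fhl1, a LIM protein of muscle, was at 712 and 491 at P1 and 1205 and 839 at P7, both higher in both P7 mice. Myocd, the co-activator that drives smooth muscle genes, was at 87.9 and 145 at P1 and 125 and 135 at P7, with the P7 values inside the P1 range.

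Many promoters of contractile and immediate early genes are known to hold the CArG box, which serum response factor binds. The windows below, the 250 bases before the RefSeq gene start in build GRCm38.p6, are shown for 2 contractile genes with the box and for 2 immediate early genes with like log2 differences in both sexes. They read 5′ to 3′ on the gene's strand, and capitals mark a CArG box (CC, then 6 bases of A or T, then GG) or a cyclic AMP response element (TGACGTCA). Both strands were searched, and neither motif can lie inside the other.
Myl9, chr2:156775214-156775463, plus strand: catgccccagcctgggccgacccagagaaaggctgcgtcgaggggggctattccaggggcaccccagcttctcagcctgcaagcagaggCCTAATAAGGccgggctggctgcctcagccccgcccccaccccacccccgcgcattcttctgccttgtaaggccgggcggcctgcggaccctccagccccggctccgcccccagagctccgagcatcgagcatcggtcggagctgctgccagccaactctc
Cnn2, chr10:79988350-79988599, plus strand: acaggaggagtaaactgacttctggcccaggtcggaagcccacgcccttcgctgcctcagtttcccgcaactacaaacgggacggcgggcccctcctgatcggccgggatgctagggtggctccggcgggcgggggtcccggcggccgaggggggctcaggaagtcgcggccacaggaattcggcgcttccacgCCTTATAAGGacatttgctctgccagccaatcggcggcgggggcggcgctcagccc
Zfp36, chr7:28379229-28379478, minus strand: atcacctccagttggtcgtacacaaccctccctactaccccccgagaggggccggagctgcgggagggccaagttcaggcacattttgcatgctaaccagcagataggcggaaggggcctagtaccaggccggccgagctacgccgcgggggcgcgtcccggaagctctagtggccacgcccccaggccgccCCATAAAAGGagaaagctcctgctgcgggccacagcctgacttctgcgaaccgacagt
Btg2, chr1:134079156-134079405, minus strand: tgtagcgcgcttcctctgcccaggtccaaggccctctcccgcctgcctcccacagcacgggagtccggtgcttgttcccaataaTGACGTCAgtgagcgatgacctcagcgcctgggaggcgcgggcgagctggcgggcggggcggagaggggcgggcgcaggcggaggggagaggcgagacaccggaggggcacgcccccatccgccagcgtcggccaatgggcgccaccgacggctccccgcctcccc
The first base of the box lies 161 bases before the start in Myl9, 56 in Cnn2 and 58 in Zfp36, and the response element of Btg2 begins 166 bases before it. Among all 32851 windows of that length in the RefSeq table, 1.47% held a CArG box and 1.55% the response element. Of the 26 contractile genes 23 were in the table, and 5 held a CArG box (Actc1, Myl9, Cnn2, Myl6 and Vcl). Of the 20 immediate early genes 17 were in it, and 2 held a CArG box (Zfp36 and Egr2) and 2 the response element (Btg2 and Dusp1). A gene can have several windows, so the share of all windows compares with shares of windows. Of 26 contractile windows 19.2% held a CArG box and 7.69% the response element. Of 21 immediate early windows 23.8% and 9.52% did, and several windows of Egr2 overlap. A match describes the letters of the window and is not evidence of binding in these cells.

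Elastin and several genes of elastic fibre assembly were higher in both P7 mice than in both P1 mice. Eln was at 552 and 476 CPM at P1 and 2125 and 1567 CPM at P7, and the lower P7 mouse was well above the higher P1 mouse. The log2 difference was 1.84 ± 0.35 (SE), with an edgeR adjusted p of 0.380, and the males within their run gave 1.72 against 1.94 in the females. Eln reads were found in 29 of 39 and 23 of 32 cells at P1 and 145 of 155 and 167 of 184 cells at P7. After thinning to 100000 reads the shares of cells were 79.4% and 77.8% at P1 and 90.8% and 89.3% at P7. The median cell's level was 326 and 167 CPM at P1 and 1266 and 1027 CPM at P7. The higher level at P7 was thus seen in the typical cell as well as in the sum.

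Fbln5, fibulin 5, which joins elastin to microfibrils, had 0 reads in the 71 cells at P1, which allows a share of up to 4.23% of cells with a read. At P7 it was at 69.9 and 33.0 CPM, with reads in 33 of 155 and 34 of 184 cells. Against a floor of 3 reads over both P1 mice it was at least 867-fold higher. That bound takes reads as independent, though they are amplified copies. It does not cover the sampling of 71 cells, which allows a far smaller difference. Mfap5, a microfibril protein, was at 84.2 and 3.82 at P1 and 493 and 743 at P7, with reads in 3 of 39 and 2 of 32 cells at P1 and 56 of 155 and 60 of 184 cells at P7. The P1 values of Mfap5 rested on 5 cells and differed widely between the sexes, and its log2 difference was 5.83 ± 1.47 (SE). Ltbp2, a latent TGF-beta binding protein of microfibrils, was at 247 and 598 at P1 and 1179.8 and 927 at P7 (log2 1.41 ± 0.45 SE). Loxl2, a lysyl oxidase-like cross-linking enzyme, was at 65.1 and 90.5 at P1 and 114 and 181 at P7, and Lox, the founding member of that family, at 20.6 and 14.2 at P1 and 53.1 and 32.6 at P7. Each of these lay higher in both P7 mice. The scaffold genes differed less. Fbn1, fibrillin 1, was at 591 and 488 at P1 and 732 and 774 at P7, and Mfap2 was at 1686 and 2745 at P1 and 2134 and 2368 at P7, with the P7 values inside the P1 range.

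Over the 21 tested genes of the elastic fibre list, 9 were higher and 2 lower in both P7 mice than in both P1 mice (42.9% and 9.52%, against 25.8% and 15.4% of all genes). Their median log2 difference was 0.37 (0.27 in the males), against 0.18 over all genes. The genes with an unadjusted p under 0.05 in edgeR were 6, all higher at P7, where 5.44% of all genes were higher and 2.57% lower. DESeq2 called 5 higher and 1 lower, against 3.75% and 1.75% of all genes given an adjusted p. The 1 called lower was Fbln2, at 17.9 and 0 CPM at P1 and 0.0060 and 0.32 CPM at P7. Of the 6 genes with an unadjusted p under 0.05, Emilin2 rested on 6 cells in all 4 mice and is not read further. The edgeR adjusted p of the other 5 was 0.248 to 0.595.

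Whether the difference was the same in other mesenchymal cells was tested with early alveolar fibroblasts of the same mice, the most numerous class of the series, in a model with the mouse as a block. In those cells Eln was at 1647 and 1453 CPM at P1 and 691 and 482 CPM at P7 (scaled within that class), so it was lower at P7 in both sexes, while in myofibroblasts it was higher. The difference between the 2 log2 changes was 3.34 ± 0.22 (SE), with an edgeR adjusted p of 0.0127, and Eln passed the test. Of 15918 genes, 3 passed (0.0188%), the others being Fbln5 and Rtn2, and 1475 had an unadjusted p under 0.05. With DESeq2 1042 genes passed. Fbln5 was at 649.5 and 829 CPM at P1 and 2094 and 1249.6 CPM at P7 in early alveolar fibroblasts, higher at P7 in both classes but from a level of 0 in myofibroblasts, and its adjusted p was 0.0127. The fitted difference of 14.72 for Fbln5 depends on the prior count of the fit, since there were no reads at P1. Rtn2, a reticulon of the endoplasmic reticulum, was at 0.260 and 0.219 CPM at P1 and 40.1 and 26.0 CPM at P7 in myofibroblasts and at 104 and 87.9 CPM at P1 and 79.5 and 57.8 CPM at P7 in early alveolar fibroblasts. Its difference was 7.66 ± 0.61 (SE), with an adjusted p of 0.0296.

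These 3 calls depended on the number of mice in the fit. With the 4 mice of P1 and P7 in normal air alone, the edgeR adjusted p was 0.105 for Eln, 0.0901 for Fbln5 and 0.112 for Rtn2. Without the P7 male it was 0.130 for Eln, 0.110 for Fbln5 and 0.205 for Rtn2, and without the P7 female it was 0.117, 0.0706 and 0.130. Without the female or the male in hyperoxia Eln had 0.0631 and 0.0717 and Rtn2 0.0933 and 0.0912, while Fbln5 still passed. Rtn2 also fell short without the P1 male, at 0.0502. With DESeq2 all 3 passed, and over the alternatives run the adjusted p ranged from 4.60e-23 to 0.130 for Eln, from 3.32e-11 to 0.110 for Fbln5 and from 3.17e-22 to 0.205 for Rtn2. The number of genes that passed in edgeR was 40 without the P1 female, 7 without the P1 male, 1 without either mouse in hyperoxia, 3 without the P7 female and 0 without the P7 male. The direction of the difference was the same in each of these fits for the 3 genes.

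Early airway smooth muscle, the other class with a full set of smooth muscle genes, gave 0 genes of 14244 (0.0%) whose change differed from that of myofibroblasts in edgeR. There 812 had an unadjusted p under 0.05, the smallest adjusted p was 0.213, and DESeq2 called 422. Without the P1 female 89 genes passed. In these cells Eln was at 1181 and 1082 CPM at P1 and 3100.5 and 2589.5 CPM at P7, higher in both P7 mice as in myofibroblasts, and the difference between the 2 log2 changes was 0.51 ± 0.22 (SE) (adjusted p 0.861). Fbln5 was at 34.8 and 22.1 CPM at P1 and 203 and 119 CPM at P7, and Rtn2 was at 81.8 and 3.81 CPM at P1 and 35.6 and 31.0 CPM at P7, with the P7 values inside the range of the P1 values. Acta2 was at 12530.4 and 13369 CPM at P1 and 9332 and 11789.8 CPM at P7 in early airway smooth muscle, lower in both P7 mice, and Myh11 at 1281 and 1417 CPM at P1 and 853 and 1039 CPM at P7.

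**Figure D2:**
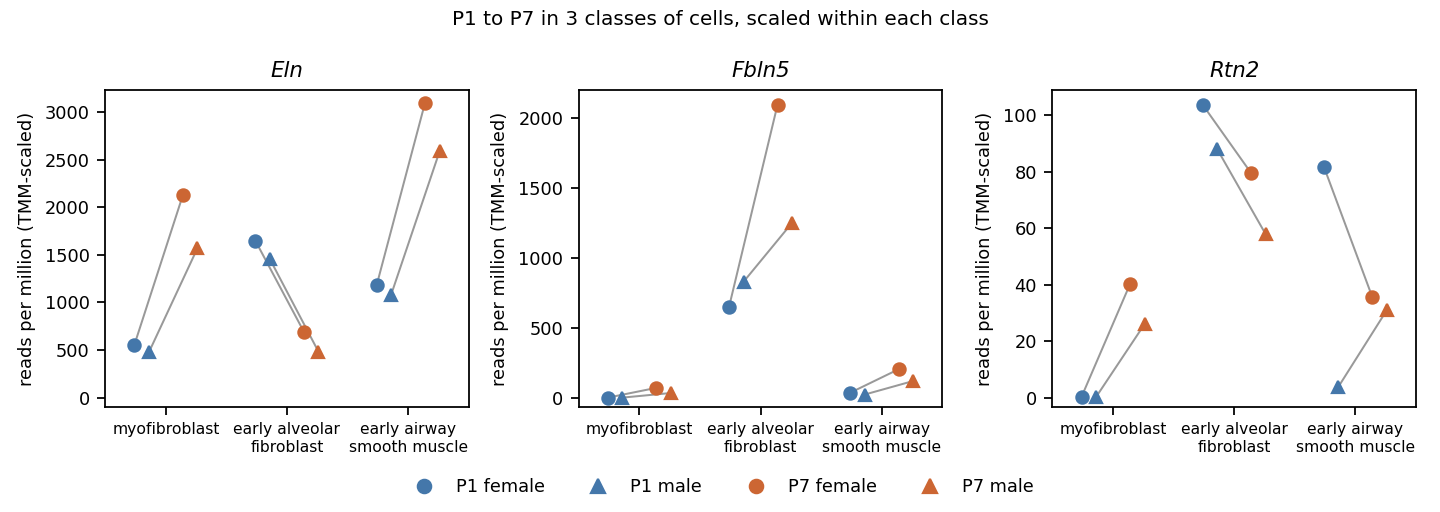
CPM, TMM-scaled within each cell class, of Eln, Fbln5 and Rtn2 at P1 (blue) and P7 (orange), for females (circles) and males (triangles). Lines join the mice of one sex, 1 mouse per point. Eln lies higher at P7 in myofibroblasts and early airway smooth muscle and lower in early alveolar fibroblasts.

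Collagen genes were mixed. Of 27 tested collagen and collagen-processing genes, 10 were higher and 6 lower in both P7 mice than in both P1 mice (37.0% and 22.2%, against 25.8% and 15.4% of all genes), with a median log2 difference of 0.38 overall and -0.03 in the males. Of the main fibrillar chains, Col1a1 was at 985 and 1258 at P1 and 1503 and 1385 at P7, Col1a2 at 1301 and 1507 at P1 and 2102 and 2184 at P7 and Col3a1 at 1124 and 1645 at P1 and 1945 and 1857 at P7. All 3 were higher in both P7 mice, with log2 differences of 0.38 ± 0.32 (SE), 0.62 ± 0.31 (SE) and 0.48 ± 0.33 (SE). Col5a2, a chain of collagen V, which nucleates fibrils, was at 57.7 and 126 at P1 and 305 and 303 at P7, a log2 difference of 1.78 ± 0.41 (SE) with an edgeR adjusted p of 0.505. Col14a1, a fibril-associated collagen, was at 6.54 and 8.09 at P1 and 53.3 and 80.2 at P7, low in both P1 mice. P4ha3, a prolyl hydroxylase subunit for collagen, was at 128 and 180.3 at P1 and 505 and 393 at P7 (log2 1.53 ± 0.36 SE). Plod1, a lysyl hydroxylase of collagen, lay in the opposite direction at 205 and 240.3 CPM at P1 and 70.4 and 59.5 CPM at P7, a log2 difference of -1.80 ± 0.39 (SE). The 2 modifying enzymes thus lay in opposite directions in both sexes.

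Basement membrane genes also lay on both sides. Lamb1, laminin beta 1, was at 185 and 184 at P1 and 366 and 481 at P7, with the 2 mice of each age close together and a log2 difference of 1.20 ± 0.32 (SE). Nid1, nidogen, which links laminin to collagen IV, was at 82.7 and 78.6 at P1 and 199 and 229 at P7 (log2 1.39 ± 0.35 SE). Both genes were higher in both P7 mice. Lama2, laminin alpha 2, was lower in both P7 mice, at 154 and 185 at P1 and 57.5 and 94.3 at P7. Fn1, fibronectin, was at 46.5 and 192 at P1 and 357 and 332 at P7, with the P1 female lowest, and the males alone differed by 0.79 in log2 against 2.94 in the females. Sparc, a collagen-binding matrix protein, was at 3551 and 5604 at P1 and 6072 and 6702 at P7, with the P1 female again lowest. Has1, a hyaluronan synthase, was at 119 and 17.7 at P1 and 3.99 and 5.03 at P7, with the highest value in the P1 female. Among 29 tested matricellular and proteoglycan genes 9 were higher and 4 lower in both P7 mice than in both P1 mice (31.0% and 13.8%, against 25.8% and 15.4% of all genes), with a median log2 difference of 0.49, and 0.07 in the males alone.

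Of 21 tested matrix proteases and their inhibitors, 11 were higher and 1 lower in both P7 mice than in both P1 mice (52.4% and 4.76%, against 25.8% and 15.4% of all genes), and 9 overlapped. The median log2 difference was 0.48. At an unadjusted p under 0.05 in edgeR, 2 were higher and 0 lower, where 5.44% and 2.57% of all genes were. DESeq2 called 0, against 3.75% higher and 1.75% lower of all genes given an adjusted p. Adamts2, which removes the N-propeptide of fibrillar procollagens, was at 88.6 and 106 at P1 and 269.5 and 193 at P7, a log2 difference of 1.26 ± 0.38 (SE) with an edgeR adjusted p of 0.581.

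Among the ligands of the TGF-beta and BMP family, Tgfb2 and Bmp4 were higher in both P7 mice. Tgfb2 was at 117 and 144 CPM at P1 and 405 and 354 CPM at P7, and each P7 value was far above the higher P1 value. Its log2 difference was 1.54 ± 0.31 (SE), with an edgeR adjusted p of 0.458, and the males gave 1.30. Tgfb3 was at 112 and 229 at P1 and 154 and 134 at P7, with the P7 values inside the P1 range, and Bmp4 was at 104 and 179 at P1 and 247 and 292 at P7 (log2 0.95 ± 0.35 SE). Grem1, which blocks BMP ligands, had reads in 1 of the 71 cells at P1 and was at 15.8 and 7.75 CPM at P7, from 6 of 155 and 7 of 184 cells. The receptor gene Acvr2a was lower in both P7 mice, at 117 and 47.6 at P1 and 28.2 and 26.6 at P7. Tgif1, a co-repressor of Smad proteins, was at 0.173 and 9.00 at P1 and 36.9 and 69.4 at P7, with almost no reads in the P1 female. Id3, a common target of BMP signals, was at 1056 and 1009 at P1 and 1065 and 1234 at P7. Over the 40 tested genes of the family 10 were higher and 6 lower in both P7 mice than in both P1 mice (25.0% and 15.0%, against 25.8% and 15.4% of all genes), with a median log2 difference of 0.32.

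In the PDGF and FGF pathways the receptor gene Pdgfrb lay in the opposite direction to the feedback inhibitors Spry2 and Spry4. Pdgfrb, the receptor of platelet-derived growth factor B, was at 32.8 and 54.3 at P1 and 103 and 86.4 at P7, while Pdgfra, given above, overlapped between ages. Spry2 and Spry4 encode Sprouty proteins, which damp receptor tyrosine kinase signals and are induced by them. Spry2 was at 51.1 and 109 CPM at P1 and 10.9 and 21.3 CPM at P7, a log2 difference of -2.30 ± 0.38 (SE) with an edgeR adjusted p of 0.370, and the males gave -2.36. Spry4 was at 168 and 215 at P1 and 81.1 and 71.6 at P7 (log2 -1.31 ± 0.33 SE). Both Sprouty genes were lower in both P7 mice. Fgf9, an FGF ligand, had 0 reads at P1 and was at 16.9 and 10.4 CPM at P7, from 11 of 155 and 13 of 184 cells. The 0 reads at P1 allow a share of up to 4.23% of the 71 cells with a read. Of 23 tested genes of both pathways 8 were higher and 4 lower in both P7 mice than in both P1 mice (34.8% and 17.4%, against 25.8% and 15.4% of all genes), with a median log2 difference of 0.56.

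Among 36 tested Wnt genes, 12 were higher and 4 lower in both P7 mice than in both P1 mice (33.3% and 11.1%, against 25.8% and 15.4% of all genes), and the median log2 difference was 0.41, with -0.18 in the females and 0.49 in the males. Wnt5a, a ligand that marks myofibroblasts, was at 239 and 389 at P1 and 607 and 420.0 at P7. Notum, a secreted enzyme that inactivates Wnt ligands, was at 113 and 42.5 CPM at P1 and 25.7 and 10.6 CPM at P7, lower in both P7 mice, with a log2 difference of -2.08 ± 0.51 (SE) and an edgeR adjusted p of 0.533. Apcdd1, a membrane inhibitor of Wnt signals, was at 2.47 and 1.57 at P1 and 20.5 and 29.6 at P7, higher in both P7 mice. The 2 antagonists thus lay in opposite directions in each sex. Hedgehog genes, which mark the response of lung mesenchyme to ligand from the epithelium, were also counted: of 13 tested, 1 was higher and 2 were lower in both P7 mice (7.69% and 15.4%, against 25.8% and 15.4% of all genes), with a median log2 difference of -0.21. Ptch1, the Hedgehog receptor and a target of the pathway, was at 60.1 and 211 at P1 and 140.0 and 142 at P7, with the P7 values inside the P1 range. Gli1, its transcription factor target, was at 8.45 and 71.4 at P1 and 12.7 and 8.80 at P7, with only the P1 male above the rest. Foxf1, a Hedgehog-responsive transcription factor of lung mesenchyme, was at 465 and 529.7 at P1 and 266 and 182 at P7, lower in both P7 mice, with a log2 difference of -1.14 ± 0.36 (SE).

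Of 15 tested genes of the insulin-like growth factor axis, 5 were higher and 4 lower in both P7 mice than in both P1 mice (33.3% and 26.7%, against 25.8% and 15.4% of all genes). At an unadjusted p under 0.05 in edgeR, 2 were higher and 2 lower, where 5.44% and 2.57% of all genes were. DESeq2 called 1 higher and 2 lower, against 3.75% and 1.75% of all genes given an adjusted p. Igf2, the fetal growth factor, was at 78.9 and 41.7 CPM at P1 and 4.89 and 3.68 CPM at P7, and H19, the imprinted RNA beside it, was at 171 and 97.8 CPM at P1 and 10.6 and 24.4 CPM at P7. Their log2 differences were -3.79 ± 0.65 (SE) and -2.83 ± 0.71 (SE), with edgeR adjusted p of 0.374 and 0.533. Both genes were lower in both P7 mice, and the males within their run gave -3.50 for Igf2 and -2.00 for H19. Igf2 reads were found in 16 of 39 and 8 of 32 cells at P1 and 11 of 155 and 7 of 184 cells at P7. Igf1, the ligand that acts after birth, was at 461 and 644 at P1 and 562 and 881 at P7. Igf1r, the receptor, was lower in both P7 mice, at 110.0 and 158 at P1 and 97.6 and 78.4 at P7. Of the binding proteins, which carry these ligands, Igfbp2, Igfbp3 and Igfbp5 were higher and Igfbp4 was lower in both P7 mice. Igfbp5 was at 10.6 and 59.9 CPM at P1 and 346 and 399 CPM at P7, a log2 difference of 3.58 ± 0.83 (SE), with reads in 3 of 39 and 3 of 32 cells at P1 and 95 of 155 and 115 of 184 cells at P7. Igfbp2 had 0 reads at P1 and was at 39.3 and 13.6 CPM at P7, from 10 of 155 and 8 of 184 cells. Igfbp3 was at 5.72 and 0 at P1 and 22.5 and 12.2 at P7, with reads in 4 of 39 and 0 of 32 cells at P1 and 19 of 155 and 22 of 184 cells at P7. Igfbp4 was at 179 and 242 at P1 and 89.1 and 93.5 at P7 (log2 -1.18 ± 0.32 SE). Of 21 tested imprinted growth genes 3 were higher and 8 lower in both P7 mice than in both P1 mice (14.3% and 38.1%, against 25.8% and 15.4% of all genes), with a median log2 difference of -0.18. Peg3, a zinc finger protein expressed from the paternal allele, was higher in both P7 mice, at 41.3 and 30.2 at P1 and 123 and 72.1 at P7.

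Transcription factors of lung mesenchyme lay on both sides. Of 37 tested, 11 were higher and 9 lower in both P7 mice than in both P1 mice (29.7% and 24.3%, against 25.8% and 15.4% of all genes), with a median log2 difference of -0.08. At an unadjusted p under 0.05 in edgeR, 6 were higher and 5 lower, where 5.44% and 2.57% of all genes were. DESeq2 called 4 higher and 4 lower, against 3.75% and 1.75% of all genes given an adjusted p. Tbx3 was at 128 and 165 CPM at P1 and 46.2 and 68.5 CPM at P7 and Tbx5 at 269 and 193 CPM at P1 and 113 and 129.7 CPM at P7. These T-box factors, which act in lung bud mesenchyme, were lower in both P7 mice, with log2 differences of -1.37 ± 0.32 (SE) and -0.93 ± 0.33 (SE). The Snail family, repressors known from epithelial to mesenchymal transition, lay in opposite directions. Snai1 was at 72.5 and 66.8 at P1 and 27.6 and 27.0 at P7, and Snai2 was at 120.1 and 142 at P1 and 243 and 380.2 at P7, with log2 differences of -1.35 ± 0.36 (SE) and 1.22 ± 0.30 (SE). The Krüppel-like factors did so too, with Klf2 at 111 and 92.5 at P1 and 45.2 and 40.1 at P7 and Klf6 at 130.0 and 187 at P1 and 324 and 368 at P7. The edgeR adjusted p of these 6 genes and Foxf1 was 0.525 to 0.620.

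Immediate early genes, which switch on within minutes of a signal and also when tissue is dissociated, lay lower at P7 in a larger share than the genes of any other list in the plot of gene lists. Of 19 tested, 13 were lower and 2 higher in both P7 mice, against 15.4% and 25.8% of all genes. Their median log2 difference was -0.87 (-1.06 in the males). At an unadjusted p under 0.05 in edgeR, 8 were lower and 0 higher, where 2.57% and 5.44% of all genes were. DESeq2 called 7 lower and 0 higher, against 1.75% and 3.75% of all genes given an adjusted p. Zfp36, which destabilises messenger RNAs of cytokines, was at 1048 and 1069.8 CPM at P1 and 279 and 280.1 CPM at P7, with the mice of each age almost equal. Its log2 difference was -1.92 ± 0.35 (SE), with an edgeR adjusted p of 0.380. Btg2, an antiproliferative factor, was at 3249.8 and 4155 at P1 and 1081 and 1481 at P7 (log2 -1.54 ± 0.32 SE). Both genes, whose promoters are printed above, were lower in both P7 mice by a similar amount in each sex.

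Socs3, an inhibitor of cytokine receptors, was at 232 and 155 at P1 and 41.2 and 51.2 at P7 (log2 -2.11 ± 0.46 SE). Junb, a subunit of the AP-1 transcription factor, was at 1166 and 1539 at P1 and 554 and 457 at P7, and Nr4a2, an orphan nuclear receptor, at 203 and 594 at P1 and 93.5 and 134 at P7. Each P1 mouse lay above each P7 mouse in these genes. Nr4a1 was at 2251 and 4052 at P1 and 1581 and 1288 at P7 and Ier2 at 1469 and 1882 at P1 and 1020.0 and 734 at P7. The best known members differed less: Fos was at 2884 and 4599 at P1 and 2834 and 2309 at P7, with the P1 female and the P7 female nearly equal, and Egr1 was at 1749.6 and 2299 at P1 and 1567 and 1812 at P7, a log2 difference of -0.25 ± 0.31 (SE). Early alveolar fibroblasts and early airway smooth muscle of the same mice had median log2 differences of -1.22 and -0.98 over this list, so the lower levels were not confined to myofibroblasts. Time from dissection to lysis is not in the labels, and the part of cell handling in these values was not tested.

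Of 16 tested genes that glucocorticoids induce in many tissues, 9 were lower (56.2%) and 0 were higher in both P7 mice, against 15.4% and 25.8% of all genes, with a median log2 difference of -1.29 (-0.86 in the males). Per1, a clock gene, was at 179.6 and 64.2 at P1 and 66.3 and 30.0 at P7, and Cebpb, a transcription factor, at 35.8 and 77.9 at P1 and 19.2 and 15.2 at P7. At an unadjusted p under 0.05 in edgeR, 3 were lower, where 2.57% of all genes were. DESeq2 called 2 lower, against 1.75% of all genes given an adjusted p. The same list had a median log2 difference of -0.58 in early alveolar fibroblasts and -0.21 in early airway smooth muscle, and the difference between classes was not tested for the list.

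**Figure D3:**
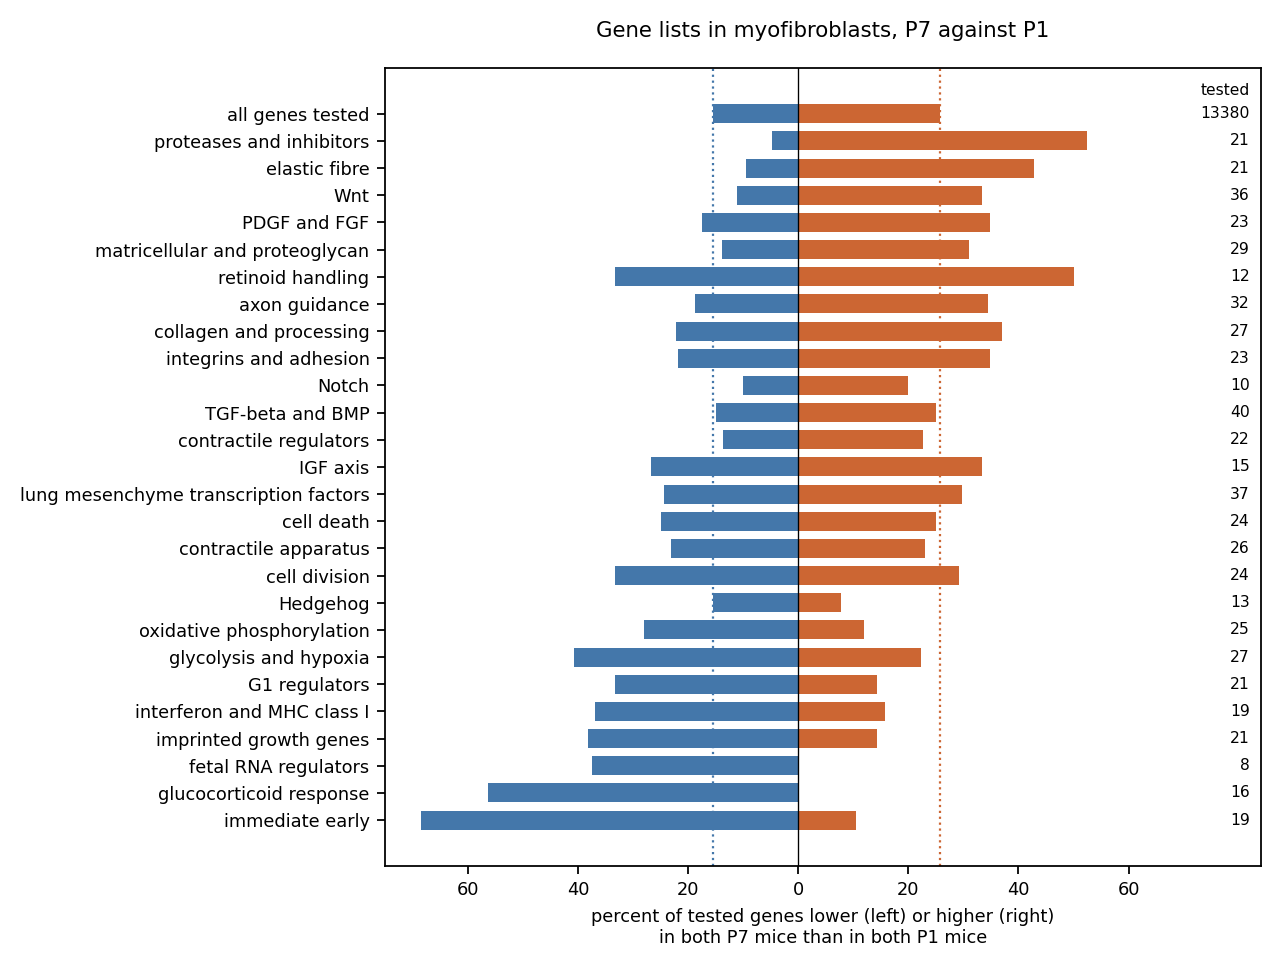
Percent of the tested genes of each list that were lower (left, blue) or higher (right, orange) in both P7 mice than in both P1 mice, with the number tested at the right. Dotted lines mark all 13380 genes tested (15.4% lower and 25.8% higher), and immediate early genes lie farthest to the left.

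Cell division genes lay on both sides. Of 24 tested genes of S phase and mitosis 7 were higher and 8 lower in both P7 mice than in both P1 mice (29.2% and 33.3%, against 25.8% and 15.4% of all genes). At an unadjusted p under 0.05 in edgeR, 4 were higher and 3 lower, where 5.44% and 2.57% of all genes were. DESeq2 called 3 higher and 1 lower, against 3.75% and 1.75% of all genes given an adjusted p. Of the replication genes, Mcm2, a subunit of the replicative helicase, was at 136 and 115 CPM at P1 and 41.1 and 32.3 CPM at P7, and Pcna, the sliding clamp, was at 269.7 and 242 CPM at P1 and 153 and 141 CPM at P7, with log2 differences of -1.77 ± 0.60 (SE) and -0.80 ± 0.31 (SE). Both were lower in both P7 mice. Of the mitosis genes, Ccnb2, cyclin B2, was at 0 and 5.10 at P1 and 136 and 45.9 at P7, with reads in 0 of 39 and 1 of 32 cells at P1 and 17 of 155 and 11 of 184 cells at P7. Aurkb, a mitotic kinase, was at 0 and 1.06 at P1 and 16.3 and 11.3 at P7, Bub1, of the spindle checkpoint, at 0 and 0 at P1 and 2.49 and 12.6 at P7, and Birc5, survivin, at 16.7 and 24.8 at P1 and 27.2 and 45.1 at P7. These 4 genes were higher in both P7 mice, and each had reads in 3 or fewer cells at P1. Aurka, another mitotic kinase, was lower in both P7 mice, at 3.38 and 18.4 at P1 and 2.03 and 0.168 at P7. The mitosis genes thus did not share a direction, and the cyclin genes Ccna2 and Ccnb1 overlapped between ages. With cells weighted equally the log2 difference of Birc5 turned from 0.79 to -0.38. In contrast, Mki67 and Top2a overlapped between ages, Mki67 being at 21.2 and 55.9 at P1 and 31.2 and 83.9 at P7 and Top2a at 26.7 and 25.1 at P1 and 16.7 and 59.1 at P7. Cdk1, the mitotic kinase, was at 70.4 and 80.9 at P1 and 80.8 and 93.9 at P7. Mki67 was higher in the male than in the female at each age. The authors' separate label for dividing myofibroblasts keeps some dividing cells out of the members, so these values do not describe division in the whole lineage.

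Genes of energy metabolism were counted in the same way. Of 27 tested genes of glycolysis and hypoxia 6 were higher and 11 lower in both P7 mice than in both P1 mice (22.2% and 40.7%, against 25.8% and 15.4% of all genes), with a median log2 difference of -0.20. The 2 phosphofructokinase genes lay in opposite directions, Pfkl at 66.3 and 86.6 at P1 and 23.8 and 21.5 at P7 and Pfkp at 12.5 and 33.7 at P1 and 79.9 and 71.8 at P7. Pkm, pyruvate kinase, was at 411 and 235 at P1 and 215 and 165 at P7, and Ldha, lactate dehydrogenase, at 1313 and 1609 at P1 and 1187 and 1089 at P7, both lower in both P7 mice. Nuclear genes of oxidative phosphorylation had a median log2 difference of -0.09 over 25 tested, of which 3 were higher and 7 lower in both P7 mice than in both P1 mice (12.0% and 28.0%, against 25.8% and 15.4% of all genes). Among guidance cues, Unc5b, a netrin receptor, was at 44.8 and 55.4 at P1 and 156 and 133 at P7, and Nrp1, a co-receptor of semaphorins and VEGF, at 59.8 and 39.9 at P1 and 106 and 180.3 at P7. Both were higher in both P7 mice, while over 32 tested genes of axon guidance 11 were higher and 6 lower in both P7 mice than in both P1 mice (34.4% and 18.8%, against 25.8% and 15.4% of all genes). Ifitm3, an interferon-induced membrane protein, was lower in both P7 mice at 1044 and 1288 at P1 and 604 and 789 at P7, and of 19 tested interferon and MHC class I genes 3 were higher and 7 lower in both P7 mice than in both P1 mice (15.8% and 36.8%, against 25.8% and 15.4% of all genes).

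Further lists gave the following counts. Of 23 tested integrins and adhesion genes, 8 were higher and 5 lower in both P7 mice than in both P1 mice (34.8% and 21.7%, against 25.8% and 15.4% of all genes). Of 24 tested cell death genes, 6 were higher and 6 lower in both P7 mice than in both P1 mice (25.0% and 25.0%, against 25.8% and 15.4% of all genes). Of 21 tested regulators of G1, 3 were higher and 7 lower in both P7 mice than in both P1 mice (14.3% and 33.3%, against 25.8% and 15.4% of all genes), and of 12 tested genes of retinoid handling, 6 were higher and 4 lower in both P7 mice than in both P1 mice (50.0% and 33.3%, against 25.8% and 15.4% of all genes). The median log2 differences of these 4 lists were 0.20, -0.04, -0.18 and 0.13. Of 10 tested Notch genes, 2 were higher and 1 lower in both P7 mice than in both P1 mice (20.0% and 10.0%, against 25.8% and 15.4% of all genes). Of 8 tested fetal RNA regulators, genes that time development, 0 were higher and 3 lower in both P7 mice (0% and 37.5%, against 25.8% and 15.4% of all genes). Their median log2 difference was -1.36. At an unadjusted p under 0.05 in edgeR there were 0, where 5.44% of all genes were higher and 2.57% lower. DESeq2 called 0, against 3.75% higher and 1.75% lower of all genes given an adjusted p.

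Markers of other cells gave the following levels. The 13 epithelial markers summed to 82.0 and 150.0 CPM at P1 and 51.6 and 63.6 CPM at P7, with 7, 7, 3 and 2 of them without a read in the P1 female, P1 male, P7 female and P7 male. The 10 endothelial markers summed to 15.5 and 43.9 CPM at P1 and 11.5 and 6.00 CPM at P7, with 6, 7, 2 and 1 without a read. The 10 immune markers summed to 39.5 and 81.9 CPM at P1 and 74.1 and 38.7 CPM at P7, with 6, 4, 3 and 1 without a read. These sums overlapped between ages for immune markers and were lower in both P7 mice for epithelial and endothelial ones. Pericyte markers, 10 in number, summed to 679 and 762 CPM at P1 and 261 and 308 CPM at P7, with 0, 1, 0 and 0 without a read. The 10 adventitial fibroblast markers summed to 518 and 627 CPM at P1 and 1383 and 1457 CPM at P7, with 3, 3, 2 and 0 without a read, and Mfap5 and Col14a1, described above, are on that list. Vascular smooth muscle markers, 10 in number, summed to 598 and 793 CPM at P1 and 858 and 1206 CPM at P7, with 4, 5, 1 and 0 without a read, and of the 8 tested 5 were higher and 0 lower in both P7 mice than in both P1 mice (62.5% and 0%, against 25.8% and 15.4% of all genes). The 10 airway smooth muscle markers summed to 1128 and 1632 CPM at P1 and 1455 and 1737 CPM at P7, with 0, 1, 0 and 0 without a read, and the 10 alveolar fibroblast markers to 744 and 399 CPM at P1 and 562 and 969 CPM at P7, with 2, 4, 0 and 1 without a read. In both P7 mice the pericyte sum was lower, and the adventitial fibroblast and vascular smooth muscle sums were higher, than in both P1 mice. The airway smooth muscle and alveolar fibroblast sums overlapped. Few genes made up most of the sums that differed here. Kcnj8 held most of the pericyte sum at P1, and Cd34 and Mfap5 most of the adventitial sum in each mouse. Myh11 and Cnn1, which are also airway smooth muscle markers, held most of the vascular smooth muscle sum in each mouse. Mesothelial, erythroid and striated muscle markers summed to 17.4 CPM or less in each mouse. The part of other cells in the results was not tested.

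Within the pericyte list the genes split. Kcnj8, a potassium channel subunit of vessel-wall cells, was at 423 and 496 CPM at P1 and 58.5 and 63.2 CPM at P7, a log2 difference of -2.92 ± 0.43 (SE) with an edgeR adjusted p of 0.343. Higd1b, a small membrane protein of pericytes, was at 66.4 and 38.7 at P1 and 7.95 and 4.30 at P7. Reads of Kcnj8 were found in 20 of 39 and 12 of 32 cells at P1 and 24 of 155 and 26 of 184 cells at P7, and those of Higd1b in 15 of 39 and 7 of 32 cells at P1 and 4 of 155 and 3 of 184 cells at P7. Thinned to 100000 reads, the shares for Kcnj8 were 52.9% and 44.4% at P1 and 12.5% and 12.9% at P7. Both genes were lower in both P7 mice, whereas Pdgfrb and Rgs5, on the same list, were higher in both.

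Because no gene passed, the naming rule took the 12 genes with the largest fold difference in each direction among 97 candidates that were higher and 69 that were lower at P7 with an unadjusted p under 0.01. The 12 highest were Fbln5, Prokr2, Hspb2, Hebp2, Pcdh7, Jam2, Ntrk3, Slc31a2, Akap6, Dclk1, Dab1 and Cenpa, and none passed the test. Each had at most 17 reads over both P1 mice. Hspb2, a small heat shock protein of muscle, had 0 reads at P1 and 24.1 and 30.5 CPM at P7, at least 460.0-fold higher. Prokr2, a prokineticin receptor, and Hebp2, a haem-binding protein, also had 0 reads at P1 and were at least 619-fold and 339-fold higher. Ntrk3, the neurotrophin 3 receptor, had 3 reads at P1 and was at 34.0 and 42.9 CPM at P7, a ratio of 657. Its counting interval was 225 to 3188, with reads taken as independent. Its P7 reads came from 35 of 155 and 43 of 184 cells. This interval and the fold bounds above count amplified reads and not cells, so they are tighter than 71 cells at P1 allow. With a gene carried by a minority of the cells even at P7, the 71 cells at P1 limit what a 0 shows.

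Pgf, placental growth factor, was not on that list and is named because it had the smallest adjusted p, so it was chosen after its values were seen. It was at 2.34 and 0.546 CPM at P1 and 155 and 79.6 CPM at P7, with reads in 1 of 39 and 1 of 32 cells at P1 and 32 of 155 and 27 of 184 cells at P7. The log2 difference was 6.58 ± 0.58 (SE) with an edgeR adjusted p of 0.0915, and the males gave 7.13. Both P7 mice were far above both P1 mice, whose reads came from 1 cell each.

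The 12 largest differences in the other direction were in Cd14, Robo4, Serpina3f, Cxcl10, Ccl2, Art4, Baiap2, Cxcl12, Tgm2, Efna5, Usp6nl and Ifitm1, and none passed. Cxcl12, a chemokine, was at 174 and 101 CPM at P1 and 11.1 and 3.70 CPM at P7, with reads in 12 of 39 and 12 of 32 cells at P1 and 9 of 155 and 5 of 184 cells at P7, or 32.4% and 33.3% at P1 and 2.63% and 1.69% at P7 after thinning. It was thus found in a larger share of the cells in both P1 mice. Cd14, a receptor for bacterial lipopolysaccharide, was at 78.0 and 129 CPM at P1 with reads in 3 of 39 and 3 of 32 cells, and had 0 reads in the 339 cells at P7, which allows a share of up to 0.885%. A single cell of each P1 mouse held 70.8% and 70.7% of its Cd14 reads. Ccl2, another chemokine, was at 41.2 and 78.5 at P1 and 6.12 and 0.705 at P7, and 55.3% and 98.5% of the P1 reads lay in 1 cell of each mouse. Reads of Ccl2 and Ifitm1 may be shared with close relatives of these genes. Sums that rest on 1 cell describe that cell more than the class.

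Shares of cells with a read separated the ages for genes carried by many cells. Stc1 had reads in 25 of 39 and 14 of 32 cells at P1 and 42 of 155 and 55 of 184 cells at P7, and Ednrb in 29 of 39 and 26 of 32 cells at P1 and 34 of 155 and 40 of 184 cells at P7. Thinned to 100000 reads, the shares for Ednrb were 76.5% and 77.8% at P1 and 17.8% and 19.1% at P7, so the lower share at P7 came despite the deeper cells there. For Igfbp5 the thinned shares were 5.88% and 11.1% at P1 and 50.7% and 53.9% at P7, and for Mfap5 8.82% and 3.70% at P1 and 36.2% and 32.0% at P7. Thinning left the order of the ages as it was in these 3 genes.

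**Figure D4:**
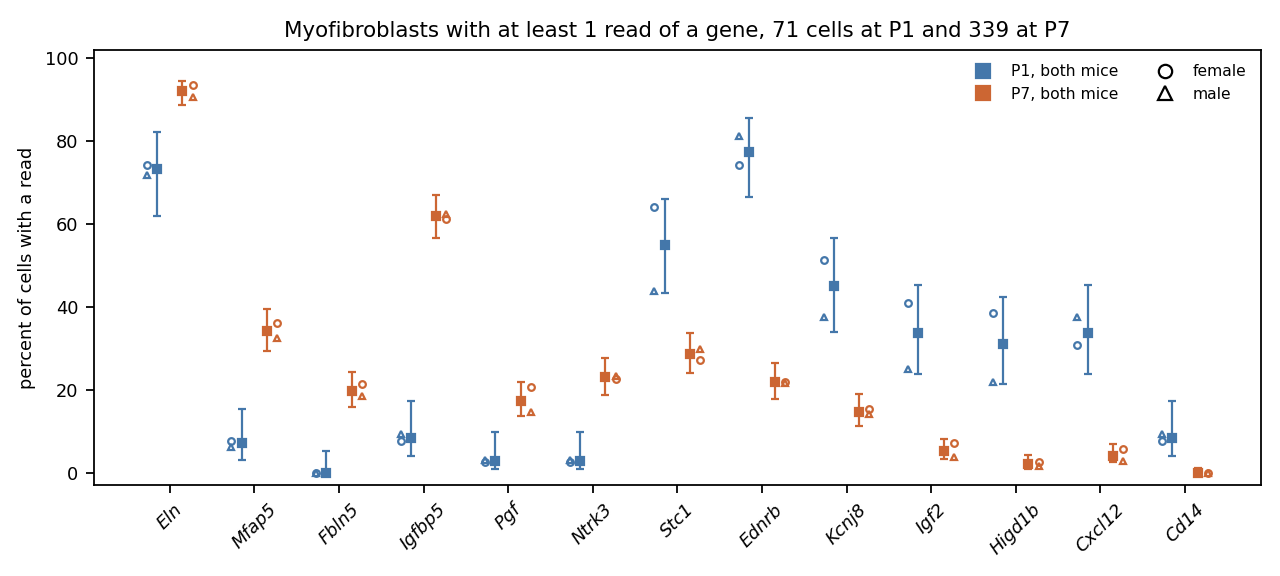
Percent of myofibroblasts with at least 1 read of 13 genes, for the 71 cells at P1 (blue) and the 339 at P7 (orange). Squares with bars are both mice of an age with the 95% Wilson interval (counting error only), and open circles and triangles are the female and the male. Mfap5, Fbln5, Igfbp5, Pgf and Ntrk3 were found in a larger share of cells at P7, and Stc1, Ednrb, Kcnj8, Igf2, Higd1b and Cxcl12 in a smaller one.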

How the data were processed

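Whole-number read counts per gene and cell were deposited by the authors without normalization. Per the submitters' processing notes, STAR 2.5.2b and HTSeq 0.10 were used, and the build listed is GRCh38, a human build, so no coordinates were taken from the counts. Per the labels' protocols, libraries were made in plates with Tn5 transposase and no RNA extraction. The table held 18072 genes, with 0 mitochondrial genes. No doublet caller was run.

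Counts were summed over the labelled cells of each mouse, taking mice with at least 10 such cells, and fitted with edgeR 4.0.16 (R 4.3.3) by its two-sided quasi-likelihood test (TMM factors, filterByExpr by group, terms for group and sex, Benjamini-Hochberg over all genes tested). The fit held 6 mice, since the 2 hyperoxia mice entered to estimate the spread, which left 2 residual degrees of freedom. Differences between cell classes were tested by the class-by-group term of a model with a block for each mouse, on 12 libraries with 3 residual degrees of freedom. DESeq2 1.42.0 and limma 3.58.1 (voom) served as alternatives. CPM are on the TMM-normalized library size. Wilson intervals are 95% intervals. A level of 0 was given the limit that 3 counts allow.

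The naming rule took the 12 largest differences in each direction among genes past the threshold, filled up from genes with an unadjusted p under 0.01, a mean of at least 20 CPM in 1 group and no overlap between the mice. Pgf was added later. The fits were tested on simulated data. The members, the gene lists and the named members were chosen with earlier results of these data known. The list medians printed above were the same to 2 decimals with genes without reads set to their bound. Promoters were taken from RefSeq (GRCm38.p6), matched by symbol.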

Additional observations from a re-analysis of the deposited data

Results flagged for a closer look

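For 3 genes the change from P1 to P7 in myofibroblasts differed from that in early alveolar fibroblasts by the edgeR test of the difference itself (adjusted p 0.0127 for Eln, 0.0127 for Fbln5 and 0.0296 for Rtn2). The difference of the log2 changes was 3.34 for Eln, 14.7 for Fbln5 and 7.66 for Rtn2, each positive, so the log2 change was greater in myofibroblasts. This does not compare the P7 levels themselves. Scaled within each class, those of Fbln5 and Rtn2 were lower in myofibroblasts than in early alveolar fibroblasts. Fbln5 had no reads in myofibroblasts at P1, so its fitted value is not a bound.

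For 11 flagged genes the female and the male pair differed in opposite directions between P1 and P7, with 1 mouse per sex and age. These are not all such genes. Others include the contractile genes Des (log2 difference 0.35 in the females and -0.78 in the males) and Actn1 (0.41 and -0.28). The difference between the sexes was not tested, and in the females the ages lay in different sequencing runs, so sex and run cannot be told apart. Among the flagged contractile genes, the log2 difference in the females was 0.33 for Acta2 (males -0.30), 0.32 for Actg2 (-0.24), 1.51 for Cnn1 (-0.17) and 0.51 for Myocd (-0.10). Cnn1, a calponin, thus had its lowest level in the P1 female, at 72.6 CPM, against 322 in the P1 male and 206 and 287 at P7. Among the flagged Hedgehog genes the log2 difference was 0.59 for Gli1 (-3.02), -2.00 for Hhip (0.16), a decoy receptor, and 1.22 for Ptch1 (-0.57). The values of the other flagged genes were 0.34 for Mfap2 (-0.21), -0.0101 for Pdgfra (0.60), 0.47 for Tgfb3 (-0.77) and -0.68 for Top2a (1.23).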

How the results depend on the processing

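The number of genes that passed between P7 and P1 was 0 in edgeR, 693 with DESeq2 (472 higher and 221 lower), 8 with no filter on low counts and 1 with no term for sex. It was 0 with voom, with the size factors of DESeq2, with only the 4 mice compared, with cells weighted equally and with cells of the mesenchymal sort alone. With 1 mouse left out it ranged from 0 to 615, the highest value being without the P1 female. For the difference from early alveolar fibroblasts, 3 genes passed in edgeR, 1042 with DESeq2, 5 with no filter, 0 with only the 4 mice compared, and 0 to 40 with 1 mouse left out. For the difference from early airway smooth muscle the count was 0 in edgeR, 422 with DESeq2 and 0 to 89 with 1 mouse left out. The cause of these differences was not tested.

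Of 1920 values of 128 genes under 15 alternatives, 1719 kept their direction and their side of the threshold, 172 passed where the main value had not, 25 moved by more than the spread and 4 reversed. Birc5 reversed from a log2 difference of 0.79 to -0.38 with cells weighted equally. Gli1 reversed to a log2 difference of 0.38 without the P1 male (range with 1 mouse left out -2.73 to 0.38), and Hhip to 0.14 without the P7 female (range -1.96 to 0.14) and 0.16 in the males alone. The difference in genes per cell between ages was -577.25 at 100000 reads, -268.0 at 50000 reads and 63.75 without thinning.

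No paired analysis was possible because the mice carry no replicate numbers or litters in the labels that tie a P1 mouse to a P7 mouse. With 71 cells at P1, a gene found in few cells cannot be told from one that is not expressed there, and 2 mice a side limit every test.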
